A study of Mus musculus with 6 samples.

Results

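Keratins are the intermediate filament proteins of epithelial cells, and 44 keratin genes were followed across 6 mammary gland arrays. The members were every gene whose symbol in the probe-to-gene table is Krt followed by digits alone, taken from probe sets that carry 1 symbol, with the probe set of highest mean kept for each gene. They are 44 of 18193 genes read this way. Their 55 probe sets left out 7 others, those of Krt6a, Krt6b, Krt33a and Krt33b, whose symbols hold a letter, and 1 shared by Krt17 and Krt14.

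The series compared mammary glands of Brca1 mutant and control female mice at 3 stages of the mammary cycle, with 1 mouse, 1 array and 1 whole gland per genotype and stage. In the virgin pair (6 months old) the mutant was Brca1 D11/D11 with p53+/- and the control was p53+/- with the Brca1 genotype written D+/+. In the pregnant pair (day 16.5, 5 months old) the mutant was Brca1 co/co with MMTV-Cre and the control Brca1 +/co with MMTV-Cre, so both mice carried the Cre transgene, the control kept 1 unaltered Brca1 allele, and no p53 allele is listed. In the lactating pair (day 1, 2 months old) the mutant was again Brca1 D11/D11 with p53+/- and the control D+/+ with p53+/-. All mice had a mixed 129/FVB/Black Swiss background. The D11 allele is carried by every cell of the mouse, while the MMTV promoter drives Cre mainly in mammary epithelium, among other tissues. The description of the design gives the germline genotype to the mutants of all 3 stages. Stage, age and the genotype of the pair change together, and the date in the array titles differs for the lactating pair, so these cannot be told apart in a comparison of stages.

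Every keratin filament is built from pairs of a type I and a type II keratin, so the genes are used in sets that mark a cell's type. Luminal cells of the mammary gland, which line the ducts and make milk, use Krt8 with Krt18, and to varying extents Krt7 and Krt19. The basal or myoepithelial layer around them uses Krt5 with Krt14, and Krt15 and Krt17 are further keratins of basal cells. Suprabasal epidermis, the mucosal and corneal epithelia, the inner root sheath and the hair shaft each have keratins of their own. The members fell into these classes as 4 luminal, 4 basal, 6 suprabasal epidermal, 4 of other stratified epithelia, 8 of the inner root sheath and companion layer, 11 of the hair shaft and 7 other keratins. Mouse keratins lie in clusters, and 22 members were on chromosome 11 and 22 on chromosome 15. Chromosome 11 holds the type I genes and chromosome 15 the type II genes together with the type I gene Krt18, which lies beside its partner Krt8 (Krt8 at chr15:101996711-102004342, Krt18 at chr15:102028216-102032026, GRCm38.p6). Because each array read a whole gland, fewer cells of a type and less keratin RNA per cell cannot be told apart.

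RefSeq promoter windows (GRCm38.p6, 250 bases before to 50 after each start) were found for 31 of the 44 members. The 7 stretches below show 70 bases before and 30 after the listed start, 5′ to 3′ on the gene's strand, for luminal Krt7, Krt8 and Krt18, basal Krt5, epidermal Krt10, hair shaft Krt32 and inner root sheath Krt71, since these classes gave different patterns in the arrays. Capitals mark TATAAA, the core of a TATA box, and GGGCGG, a GC box, on either strand (TTTATA and CCGCCC on the other), and in Krt8 a forward and a reverse TATAAA match overlap. The regions are chr15:101412333-101412432 (plus strand), chr15:102004313-102004412 (minus), chr15:102028146-102028245 (plus), chr15:101712876-101712975 (minus), chr11:99389335-99389434 (minus), chr11:100088240-100088339 (minus) and chr15:101743068-101743167 (minus).
Krt7: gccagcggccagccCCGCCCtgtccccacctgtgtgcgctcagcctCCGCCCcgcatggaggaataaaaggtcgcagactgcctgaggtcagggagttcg
Krt8: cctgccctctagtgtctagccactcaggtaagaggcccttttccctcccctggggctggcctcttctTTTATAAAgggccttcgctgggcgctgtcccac
Krt18: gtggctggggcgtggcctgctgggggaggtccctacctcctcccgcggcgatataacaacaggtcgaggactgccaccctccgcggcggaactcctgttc
Krt5: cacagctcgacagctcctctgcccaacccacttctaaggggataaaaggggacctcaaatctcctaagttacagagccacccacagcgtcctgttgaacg
Krt10: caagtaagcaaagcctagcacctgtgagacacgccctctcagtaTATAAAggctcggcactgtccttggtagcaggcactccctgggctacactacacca
Krt32: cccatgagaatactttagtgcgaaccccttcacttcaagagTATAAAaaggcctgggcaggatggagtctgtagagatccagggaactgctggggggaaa
Krt71: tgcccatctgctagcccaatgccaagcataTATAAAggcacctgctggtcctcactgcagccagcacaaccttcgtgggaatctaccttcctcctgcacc

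A forward TATAAA lying wholly within 40 to 20 bases before the start was present in 12 of the 31 keratin windows (38.7%), against 613 of all 32851 promoter windows (1.87%). The keratin counts take 1 window per gene, the first listed, while those of all promoters take every listed window. It was present in 12 of the 26 windows of the skin and other classes (46.2%), Krt10, Krt32 and Krt71 among them, and in 0 of the 5 luminal and basal windows. In the Krt8 window the TATAAA overlaps the listed start itself, and the listed start of Krt14 lies inside the annotated gene (chr11:100203162-100207510). The listed starts of Krt10 (chr11:99385254-99397449) and Krt12 (chr11:99415664-99422593), both among the 12, also lie inside their annotated genes. So do those of Krt2, Krt36 and Krt78, which are not among the 12. Counted anywhere in the window and on either strand, TATAAA was in 17 keratin windows (54.8%) against 13.6% of all promoters. GGGCGG was in 2 of the 31 (6.45%), Krt7 being 1 of them, against 35.7% of all promoters. These are matches of letters, and neighbouring keratin genes share ancestry, so the windows are not independent.

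The arrays give MAS5 signals, a linear hybridisation brightness per probe set, scaled so that every array has a 2%-trimmed mean of 500. Levels were read against 20 probe sets of Y-linked genes, which should be dark in these female mice. Their highest signal was 166 and 105 in the virgin mutant and control, 162 and 196 in the pregnant mutant and control, and 353 in the lactating mutant against 484 in its control, so the lactating arrays had the highest background. Their median was 75.4 and 98.7 in the lactating mutant and control, and between 21.1 and 29.1 in the other 4 arrays. Ratios of 3′ to 5′ control probe sets, a sign of RNA length, ranged over 1.37 to 2.74 for actin and 0.732 to 3.50 for Gapdh, and were highest in the virgin control for both. All 14 further markers of luminal epithelium, such as Epcam and Elf5, rose above the highest Y-linked signal in at least 1 array. The brightest of 4 Brca1 probe sets read 487 and 137 in the virgin mutant and control, 288 and 159 in the pregnant mutant and control, and 157 in the lactating mutant against 238 in its control. No source used here says whether its probes lie in the deleted stretch, so it does not check the genotypes.

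Of the 44 keratins, 9 lay above the highest Y-linked signal of the array in all 6 arrays (Krt5, Krt8, Krt14, Krt18, Krt19, Krt32, Krt42, Krt71 and Krt81) and 21 did so in none. All 4 luminal and 4 basal keratins passed it in at least 1 array. The 4 classes of skin and other stratified epithelia hold 29 genes, of which 18 never passed it. The filter on low values, a mean log2 value of 7.72 or more, left 16 keratins to be tested among 11562 genes: the 8 luminal and basal ones, Krt10 and Krt79, Krt71, Krt32 and Krt81, and Krt23, Krt42 and Krt80.

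**Figure D1:**
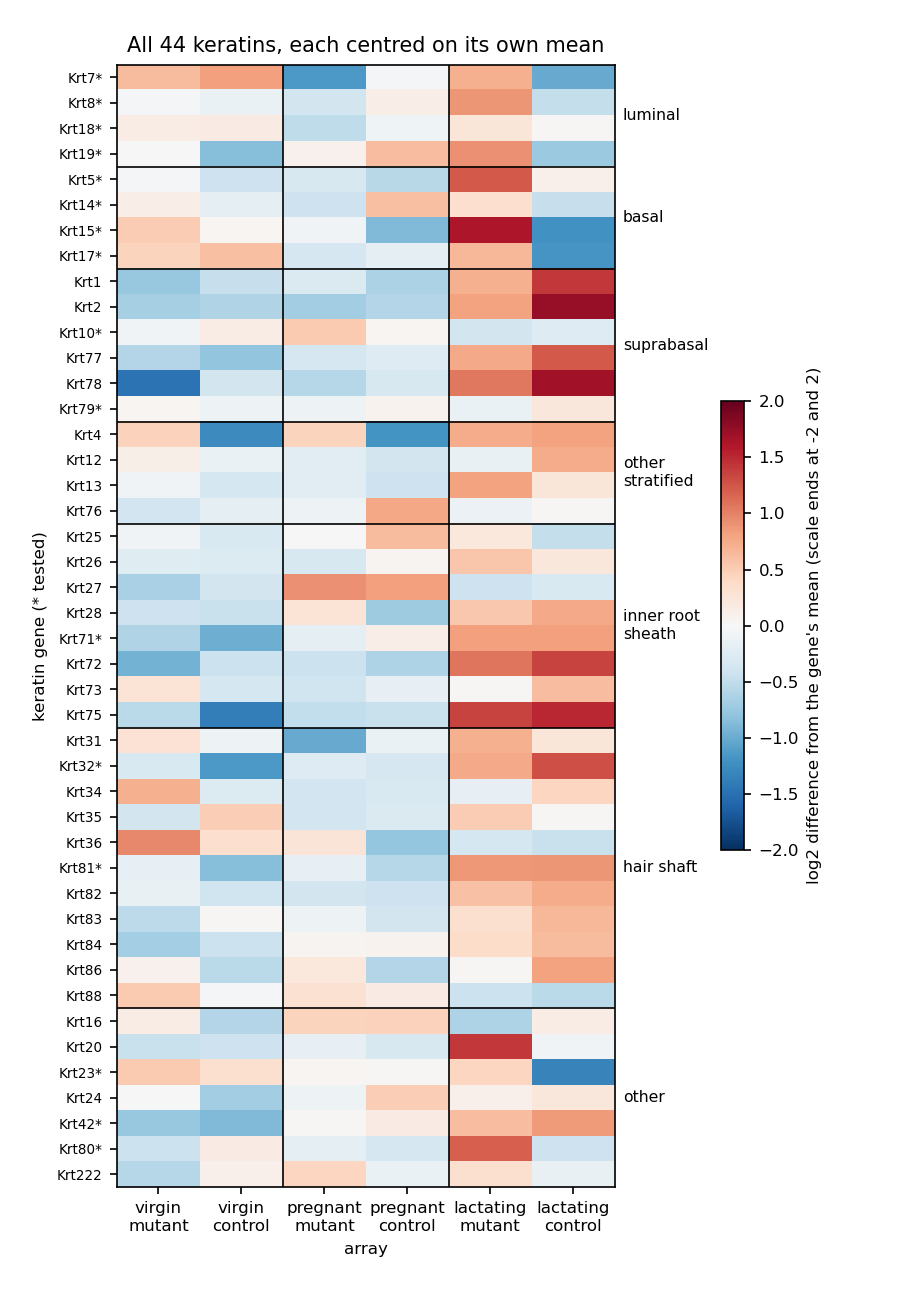
Each row is 1 of the 44 keratins and each column 1 array, with mutant left of control at each stage. Colour is log2(signal + 52.1) minus the gene's own mean over the 6 arrays, red above it and blue below it, and asterisks mark the 16 tested genes. Luminal and basal rows are redder in the lactating mutant than in the lactating control, while 16 of the 29 rows of skin and other stratified epithelia have both lactating arrays above the other 4.

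Krt8 and Krt18, the filament partners of simple epithelia, were bright in every array. Krt8 read 8418 and 7889 in the virgin mutant and control, 6648 and 9402 in the pregnant mutant and control, and 15971 in the lactating mutant against 6146 in its control. The lactating mutant was thus the highest of the 6 arrays and the lactating control the lowest. Krt18 read 10696 and 10880 in the virgin mutant and control, 6790 and 9121 in the pregnant mutant and control, and 11500 in the lactating mutant against 9886 in its control. Its spread over the arrays was narrower, and the partners did not move by the same amount in the lactating pair, where the log2 mutant-to-control ratio was 1.37 for Krt8 and 0.22 for Krt18. All 3 probe sets of Krt8 gave this direction, with lactating ratios of 1.37, 1.14 and 1.47, and all 3 were below 0 in the pregnant pair, at -0.50, -0.28 and -0.68. They did not all peak in the lactating mutant: the dimmest of them read 8381.5 in the pregnant control against 7589.8 in the lactating mutant. These log2 ratios, and those below, are of signal + 52.1, the 25th percentile of all values, which understates the change of dim genes.

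Krt19, a small type I keratin without a tail domain that is common in ductal cells, read 6442 and 3564 in the virgin mutant and control, 6921 and 9967 in the pregnant mutant and control, and 12236 in the lactating mutant against 3843 in its control. Krt7, a type II keratin of simple ductal epithelia, read 963 and 1101 in the virgin mutant and control, 242 and 589 in the pregnant mutant and control, and 1019 in the lactating mutant against 273 in its control. The lactating control's Krt7 signal was under the highest Y-linked signal of that array. Both genes were lower in the mutant than the control of the pregnant pair, at -0.52 for Krt19 and -1.12 for Krt7, and higher in the mutant of the lactating pair, at 1.66 and 1.72.

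The basal pair behaved less uniformly. Krt5, the type II keratin of basal cells, read 1104 and 827 in the virgin mutant and control, 886 and 749 in the pregnant mutant and control, and 2691 in the lactating mutant against 1206 in its control, and so was higher in the mutant of each pair, by 0.40, 0.23 and 1.13. Krt14, its type I partner, read 1210 and 954 in the virgin mutant and control, 809 and 1697 in the pregnant mutant and control, and 1398 in the lactating mutant against 787 in its control. Its ratio was thus 0.33 in the virgin pair, -1.02 in the pregnant pair and 0.79 in the lactating pair. The Krt14 probe set used bears the suffix for probes that may match other transcripts. A second one without that suffix gave 0.10, -1.47 and 0.96, and a dimmer further one gave 0.42, 0.54 and -0.37, so the probe sets of Krt14 disagree in direction in 2 of the 3 pairs.

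Krt15, a type I keratin of basal cells without a fixed partner that also marks stem cells of the hair follicle, read 323 and 217 in the virgin mutant and control, 199 and 91.0 in the pregnant mutant and control, and 758 in the lactating mutant against 61.6 in its control. It was higher in the mutant of every pair, by 0.48, 0.81 and 2.83. Krt17, a basal keratin also induced in wounded skin, read 279 and 315 in the virgin mutant and control, 140.0 and 161 in the pregnant mutant and control, and 334 in the lactating mutant against 54.9 in its control. Its ratios were -0.15, -0.15 and 1.85. In the lactating control both genes lay under the median Y-linked signal, and the lactating mutant's Krt17 lay under that array's highest Y-linked signal, so the size of these lactating ratios rests on readings near background. A second, dim Krt17 probe set gave -0.55 in the lactating pair.

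**Figure D2:**
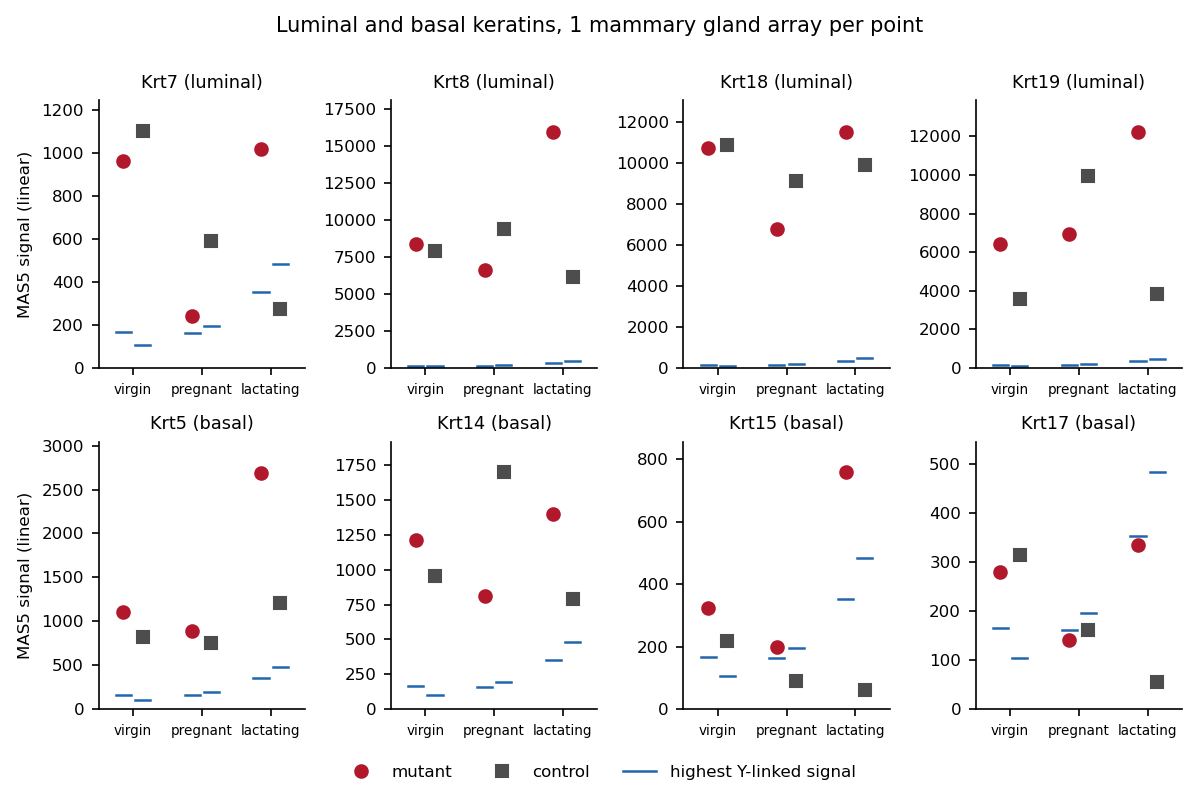
MAS5 signals (linear axis from 0, its own range per panel) of the 4 luminal and 4 basal keratins, with circles for mutants, squares for controls and blue lines for the highest Y-linked signal of the same array. In the lactating pair the circle is above the square in all 8 panels, and for Krt7, Krt15 and Krt17 the lactating control is under the blue line.

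Across the 3 pairs together, no keratin passed the test of mutants against controls (limma with stage as a block and Benjamini-Hochberg adjustment over 11562 genes at 0.05). The count was 0 of 16, against 0% of all genes tested, where the lowest adjusted p was 0.945. At an unadjusted p under 0.05 there were 2 of the 16 keratins, against 537 of the 11562 genes. These were Krt15, at a log2 difference of 1.37 ± 0.44 (SE; 95% interval 0.34 to 2.40), and Krt5, at 0.58 ± 0.21 (SE; 0.09 to 1.07). The differences of the other luminal and basal keratins had wide intervals, from -0.94 to 1.22 for Krt7 (0.14 ± 0.46), from -0.42 to 1.07 for Krt8 (0.32 ± 0.32) and from -0.49 to 0.33 for Krt18 (-0.08 ± 0.18). Krt19 was at 0.66 ± 0.36, Krt17 at 0.52 ± 0.42 and Krt14 at 0.03 ± 0.32 (SE). The median over the 16 keratins was 0.23, against 0.03 over all genes, with 13 of 16 above 0. Without the lactating pair the median was 0.01 and Krt15 stood at 0.64 and Krt5 at 0.31, and without the pregnant pair the median was 0.53.

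A keratin was higher in the mutant of all 3 pairs in 3 of 16 cases (Krt5, Krt15 and Krt23), against 15% of all genes tested, and lower in all 3 pairs in 0 of 16, against 10.6%. Pair by pair the picture differed, and with 1 array per genotype and stage these are values without a test. In the virgin pair 0 of 16 were at least 2-fold higher in the mutant (1.44% of all genes) and 0 at least 2-fold lower (1.25%), and the median ratio was 0.18 against 0.02 over all genes. In the pregnant pair 0 were higher (1.1% of all genes) and 2 were lower, Krt7 and Krt14 (0.908%), with a median of -0.15 against 0.02. In the lactating pair 8 of 16 were at least 2-fold higher in the mutant (3.64% of all genes) and 0 lower (2.72%), with a median of 0.96 against 0.05 over all genes.

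The 8 keratins of the lactating pair were Krt7, Krt8, Krt19, Krt5, Krt15 and Krt17, which are luminal or basal, and Krt23 and Krt80. Krt23, a type I keratin of simple epithelia, read 372 and 313 in the virgin mutant and control, 249.6 and 245.5 in the pregnant mutant and control, and 346 in the lactating mutant against 63.8 in its control. Krt80, a type II keratin of differentiating epithelial cells, read 143 and 242 in the virgin mutant and control, 178 and 154 in the pregnant mutant and control, and 546 in the lactating mutant against 144 in its control. In the lactating control both genes lay under the highest Y-linked signal, as did Krt23 in the lactating mutant. All 8 luminal and basal keratins had a lactating ratio above 0, from 0.22 to 2.83, with a median of 1.51. In the pregnant pair the same 8 had a median of -0.46, with 6 below 0, and in the virgin pair a median of 0.21, with 5 above 0. Of the 8, 6 had their highest signal of the 6 arrays in the lactating mutant, as did 20.4% of all genes tested, and 4 had their lowest in the lactating control, as did 27.2% of all genes. The 5 tested keratins of skin classes, out of 29 members, were all below 0 in the lactating pair, from -0.53 to -0.002. Untested members of those classes reached 0.70 (Krt25), within the luminal and basal range. Krt25 read 40.8 in the lactating mutant and 5.3 in its control, under the Y-linked median of each array.

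**Figure D3:**
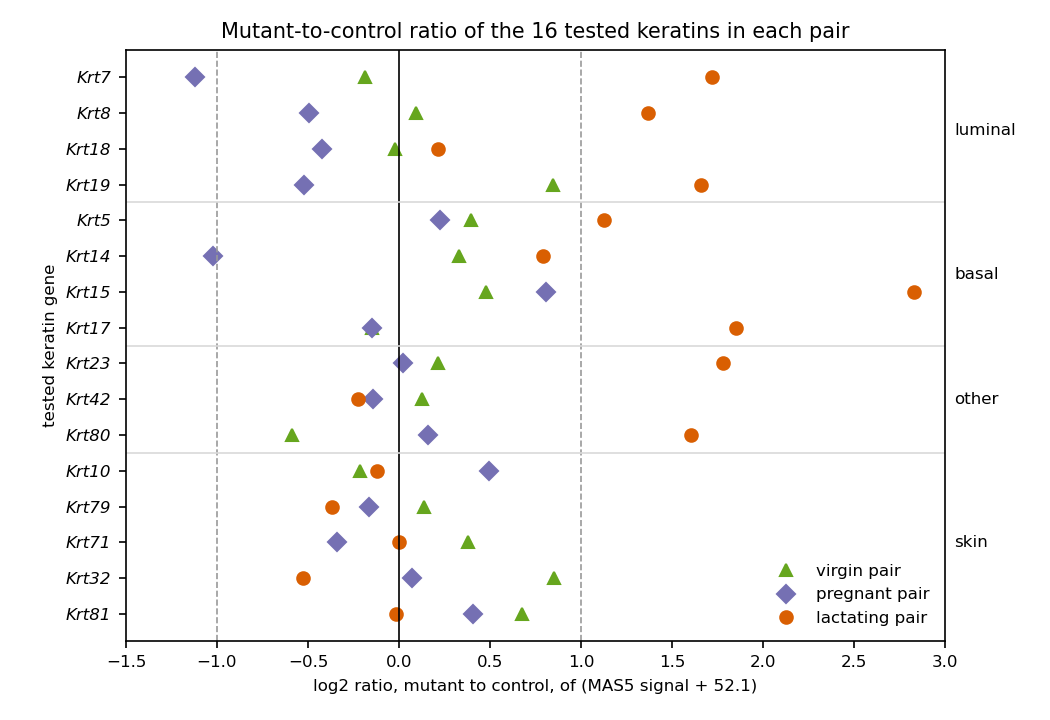
Log2 ratio of mutant to control for the 16 tested keratins, by class, with triangles for the virgin pair, diamonds for the pregnant pair and circles for the lactating pair, and dashed lines at 2-fold. The circles of the 8 luminal and basal genes lie between 0.22 and 2.83, while the circles of the 5 tested skin genes lie between -0.53 and -0.002.

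Other epithelial lists had lower median ratios in the lactating pair than the luminal and basal keratins, a difference that was not tested, and single genes overlapped with them. Over all genes tested, 3.64% were at least 2-fold higher in the mutant of this pair, and the median ratio was 0.05. Of 14 luminal markers that are not keratins, 10 were above 0 and 3 at least 2-fold higher in the mutant, with a median of 0.44. Their summed signal was 76680 in the lactating mutant and 59738 in the lactating control, against sums of 50823 in the pregnant mutant and 64962 in the pregnant control. Of 8 tested myoepithelial markers 6 were above 0 and 1 at least 2-fold higher in the lactating pair, with a median of 0.39 and sums of 54641 in the mutant and 40979 in the control. Of 13 tested genes of desmosomes and plakins, the junction proteins to which keratin filaments attach, 12 were above 0 and 3 at least 2-fold higher, with a median of 0.33. These counts include the envelope protein envoplakin, Evpl, at 1.90, which passed the filter only with the lactating arrays counted. The lactating control read 79.5 for Evpl and 31.7 for Dsc2 (ratio 1.47), both under that array's Y-linked median of 98.7. The contractile regulator Cnn1 was at 1.36, above Krt5 at 1.13. Evpl, Dsc2 and Cnn1 were named after their values were seen. Adipocyte markers ran the other way, with 2 of 8 above 0, a median of -0.35 and sums of 80002 in the lactating mutant and 88211 in the lactating control. In the pregnant pair the medians were -0.35 for the luminal, -0.21 for the myoepithelial and -0.12 for the desmosomal and plakin lists, so the direction of these lists in both pairs was that of the luminal keratins. The adipocyte markers did not run the other way in the pregnant pair, where 2 of 8 were above 0 and their median was -0.29. The part of cell number in the keratin ratios was not tested.

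Across stages, Krt42 was the only tested keratin called between pregnant and virgin glands. Krt42, a type I keratin known in mouse from the nail, read 946 and 861 in the virgin mutant and control, 1649 and 1827 in the pregnant mutant and control, and 2528 in the lactating mutant against 2970 in its control, so the stages did not overlap. It was higher in pregnant than in virgin glands by 0.91 ± 0.20 (SE; limma adjusted p = 0.0240). This is 1 of 16 keratins called, against 14.6% of all genes, and 1 of 16 called higher, against 6.56%. The call was lost under median centring, with the arrays' probe sets averaged, and whenever a virgin or pregnant array was left out. The Krt42 probe set used bears the suffix for probes that may match other transcripts, and the other Krt42 probe set read between 78.3 and 185 with no step from stage to stage. Krt7 had the most negative difference between pregnant and virgin glands, at -1.32 ± 0.57 (SE; limma adjusted p = 0.160). The median of the 16 was -0.02, against -0.06 over all genes.

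Markers of other tissues also differed between these stages. Of all genes tested, 14.6% were called and 6.56% called higher between pregnant and virgin glands. The shares were 52.7% and 24.2% between lactating and virgin glands, and 32.6% and 15.5% between lactating and pregnant glands. All 10 skeletal muscle markers were called higher in pregnant than in virgin glands, with a median difference of 2.995 and sums of 178120 and 157030 in the pregnant mutant and control, against 14400 and 41529 in the virgin mutant and control. In lactating glands 8 of the 10 were called higher than in virgin glands (median 1.76) and 7 called lower than in pregnant glands (median -1.32), with sums of 77138 in the mutant and 79324 in the control. Of 8 adipocyte markers 3 were called lower in pregnant than in virgin glands (median -0.82), and 6 called lower in lactating than in virgin glands (median -2.51), with sums of 80002 and 88211 in the lactating mutant and control, against 156590 and 156130 in the virgin mutant and control. Every marker of both lists passed the highest Y-linked signal in at least 1 array. The part of these tissues in the stage differences of the keratins was not tested.

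Between lactating and virgin glands 5 of 16 keratins were called, all higher, against 52.7% of all genes called and 24.2% called higher. They were Krt32, Krt71 and Krt81, the only 3 tested among 8 inner root sheath and 11 hair shaft members, with Krt42 and Krt5. The hair classes did not all run this way. The untested hair shaft keratins Krt88 and Krt36, named after their values were seen, read 77.5 and 68.0 (Krt88) and 40.3 and 34.4 (Krt36) in the lactating mutant and control, against 199.6 and 118 (Krt88) and 177 and 96.8 (Krt36) in the virgin mutant and control. All 16 tested keratins would also pass the filter on low values over the virgin and pregnant arrays alone. Krt32, a type I keratin of the hair cuticle, read 576 and 852 in the lactating mutant and control, against 248 and 114 in the virgin mutant and control, a difference of 1.76 ± 0.35 (SE; limma adjusted p = 0.00470). Krt71, a type II keratin of the inner root sheath, read 536 and 537 in the lactating mutant and control, against 169 and 118 in the virgin mutant and control, a difference of 1.60 ± 0.28 (SE; limma adjusted p = 0.00280). Krt81, a type II keratin of the hair cortex, read 841 and 852 in the lactating mutant and control, against 383 and 219.8 in the virgin mutant and control, a difference of 1.39 ± 0.25 (SE; limma adjusted p = 0.00321). Krt42 rose by 1.55 ± 0.20 (SE; limma adjusted p = 0.000788), or by 0.95 with its 2 probe sets averaged, and Krt5 by 0.88 ± 0.26 (SE; limma adjusted p = 0.0224). In each of these 5 genes both lactating arrays were above both virgin arrays.

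Compared with pregnant glands 4 of 16 keratins were called in lactating glands, all higher, against 32.6% of all genes called and 15.5% called higher. Krt32 (256 and 242 in the pregnant mutant and control) rose by 1.32 ± 0.35 (SE; limma adjusted p = 0.0257) and Krt81 (383 and 276) by 1.25 ± 0.25 (SE; limma adjusted p = 0.0110). Krt5 rose by 1.10 ± 0.26 (SE; limma adjusted p = 0.0175) and Krt42 by 0.64 ± 0.20 (SE; limma adjusted p = 0.0412). Krt71 (239 and 316 in the pregnant mutant and control) was at 0.85 ± 0.28 (SE; limma adjusted p = 0.0538). Without the pregnant mutant 0 of these calls were made, and without the pregnant control 1. Leaving out the lactating mutant lost both calls of Krt5, whose difference became 0.48 against virgin and 0.69 against pregnant glands. Its call against virgin glands was also lost without the virgin mutant (0.74) or the virgin control (1.02). With no genotype term that call was lost as well, at 0.88 (limma adjusted p = 0.0565). Leaving out the lactating control lost the calls against pregnant glands of Krt32, Krt42 and Krt81, at 0.83, 0.53 and 0.97, and leaving out either virgin array lost that of Krt42, at 0.64. The Krt42 call against pregnant glands was also lost with its probe sets averaged (0.44; limma adjusted p = 0.182) and with no variance trend (0.64; limma adjusted p = 0.0615). With probe sets prone to cross-matching set aside, Krt42 fell under the filter and was not tested.

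The centring of the arrays bears on these stage differences. At the deposited scaling the median over all genes was -0.10 between lactating and virgin, -0.03 between lactating and pregnant and -0.06 between pregnant and virgin glands, and median centring moved it to -0.69, -0.45 and -0.24. The share of higher calls among all genes called was 45.9%, 47.4% and 45.0% as deposited, and 19.2%, 17.6% and 27.5% after median centring. After it Krt32 was still called, at 1.17 against virgin and 0.91 against pregnant glands, as was Krt81 at 0.80 and 0.84, and Krt71 and Krt42 against virgin glands at 1.01 and 0.96. Krt5 was then at 0.29 and 0.69 and was called in neither. Krt10, Krt17 and Krt23 were called lower in lactating than in virgin glands after median centring, at -0.94, -1.37 and -1.46.

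The background was higher in the lactating arrays too. With no filter on low values, 6 of 9 Y-linked genes were called higher in lactating than in virgin glands, with a median difference of 1.02, and 3 of 9 against pregnant glands, with a median of 0.97, while 0 of 9 were called between pregnant and virgin glands. The 28 keratins under the filter gave 9 called higher and 1 lower against virgin glands and 7 higher and 1 lower against pregnant glands. In the same unfiltered fits 24.1% of 18193 genes were called higher and 43.2% called in all against virgin glands, and 14.7% higher and 25.3% in all against pregnant glands. Of the 29 keratins of skin and other stratified epithelia, 16 had both lactating arrays above the other 4, as had 13 of the 20 Y-linked probe sets (65%) and 32.6% of all probe sets with 1 symbol. The part of this background in the rise of the hair keratins was not tested. Krt32, Krt71 and Krt81 lay above the highest Y-linked signal in every array, but some of these margins were narrow. Krt71 read 169 against a highest Y-linked signal of 166 in the virgin mutant and 118 against 105 in the virgin control. In the lactating control it read 537 against 484. Krt32 read 114 against 105 in the virgin control.

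**Figure D4:**
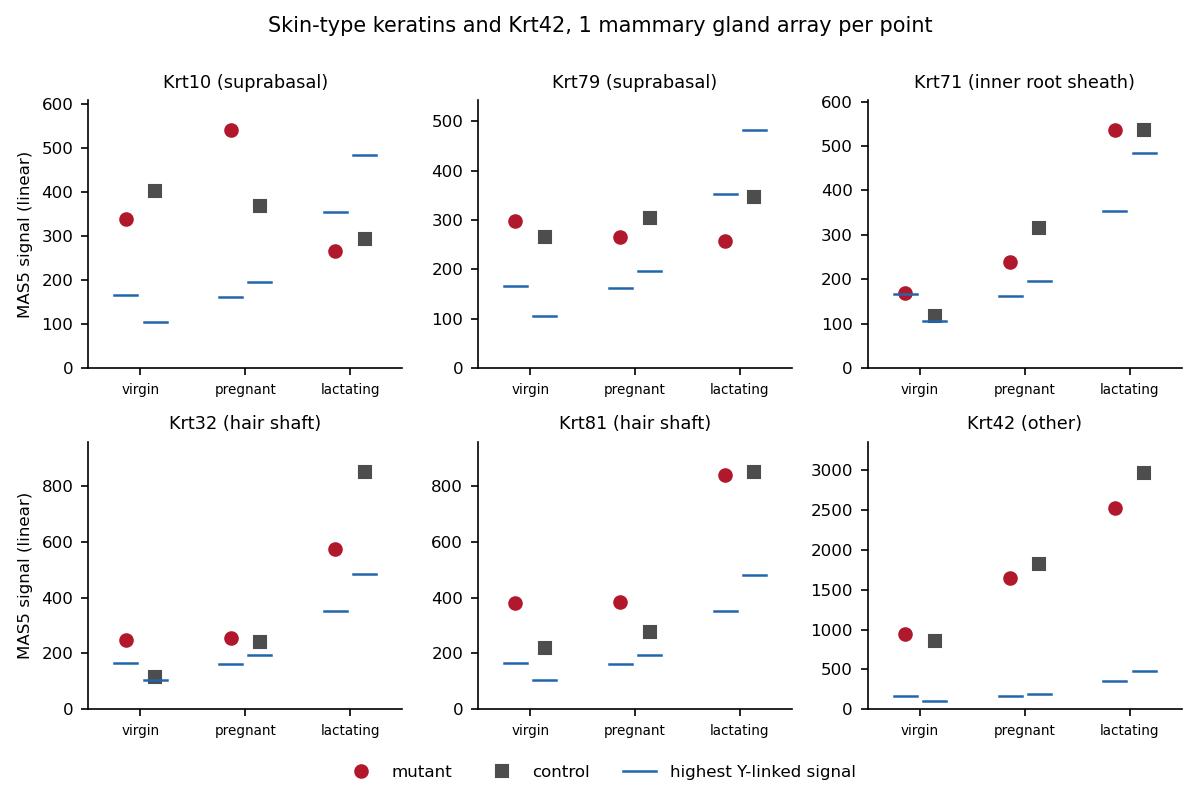
MAS5 signals (linear axis from 0, its own range per panel) of the 5 tested skin-class keratins and Krt42, with circles for mutants, squares for controls and blue lines for the highest Y-linked signal of the same array. Krt71, Krt32, Krt81 and Krt42 are highest in the lactating arrays, where the blue lines are also highest, and Krt10 and Krt79 are not.

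Among the epidermal keratins, Krt10, the type I keratin of the spinous layer, read 339 and 403 in the virgin mutant and control, 541 and 369 in the pregnant mutant and control, and 265 in the lactating mutant against 293 in its control. Krt79, known in mouse from the upper hair follicle, stayed between 258 and 348 in the 6 arrays. Neither was called in any comparison at the deposited scaling, and both lay under the highest Y-linked signal in the lactating arrays. Krt78, a type II keratin, read 379 and 609 in the lactating mutant and control and between 22.1 and 114 in the other 4. Krt1, the type II partner of Krt10, read 112 and 216 in the lactating mutant and control and between 7.0 and 29.8 in the other arrays, and so stayed under the highest Y-linked signal throughout, as did Krt2 and Krt77.

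Markers of the cornified envelope and of the hair follicle that are not keratins gave the following. Of the 8 tested genes of the cornified envelope, 6 were called higher and 0 lower between lactating and virgin glands, against 24.2% of all genes called higher and 52.7% called in all. Against pregnant glands 6 were called higher and 1 lower, beside 15.5% of all genes called higher and 32.6% called in all. The lower one was Calml3, at -2.52 ± 0.545 (SE; limma adjusted p = 0.014). Both counts of 6 include Sprr1a, which passed the filter only with the lactating arrays counted. In the lactating control Sprr1a (472), Cnfn (335) and Aloxe3 (451), which are in both counts, lay under the highest Y-linked signal (484). So did Sprr1a in the lactating mutant (271 against 353). Among the others called against virgin glands were the crosslinking enzyme Tgm1 at 2.86 ± 0.36 (SE; limma adjusted p = 0.000736), the protease Casp14 at 1.87 ± 0.24 (0.000797) and loricrin, Lor, at 1.55 ± 0.34 (0.00755). The 20 genes of that list summed to 8444 and 8250 in the lactating mutant and control, against 3308 and 2782 in the virgin mutant and control, and 10 of the 20 never passed the highest Y-linked signal. Filaggrin, Flg, which binds keratin filaments in the epidermis, read 44.5 and 78.6 in the lactating mutant and control, under the Y-linked median of each array. Of 14 hair follicle genes only 2 were tested and 8 never passed the highest Y-linked signal. Both tested ones, Foxn1 and Lgr5, passed the filter only with the lactating arrays counted, so no test is given for them. Foxn1, a transcription factor of hair formation, read 310.0 and 360.0 in the lactating mutant and control, under the highest Y-linked signal of each array, against 78.1 and 72.0 in the virgin mutant and control. Hoxc13, which controls hair keratin genes, read 43.9 and 34.2 in the lactating mutant and control, under both Y-linked medians.

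The remaining named members were dim. In the inner root sheath and companion layer, Krt75, the type II keratin of the companion layer, read 397 and 447 in the lactating mutant and control and between 14.9 and 77.1 in the other arrays, and Krt72 read 341 and 426 against 44.3 to 85.9. In the hair shaft class Krt84 read 206 and 259 in the lactating mutant and control and between 73.7 and 158 elsewhere. Krt4, a type II keratin of mucosal epithelia, read 185 and 19.7 in the virgin mutant and control, 184 and 23.7 in the pregnant mutant and control, and 237 in the lactating mutant against 251 in its control. Its second probe set did not show that step, at 13.5 and 17.3 in the virgin mutant and control and 19.9 and 73.7 in the pregnant mutant and control. Krt13, the mucosal partner of Krt4, and Krt12, of the cornea, stayed under the highest Y-linked signal in all 6 arrays. The other hair shaft keratins had signals from 7.1 to 200.5, and the other members of the inner root sheath class from 3.1 to 151. Krt76 stayed between 6.8 and 79.1. Of the untested keratins outside these classes, Krt16, Krt24 and Krt222 stayed between 13.3 and 161. Krt20, a keratin of gut and urinary epithelium, read 284 and 69.1 in the lactating mutant and control and between 41.2 and 60.5 in the other arrays.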

How the data were processed

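Total RNA from whole mammary glands of 6 mice was hybridised to 6 arrays, per the labels. MAS5 made the deposited intensities, which are linear, per the submitters' processing notes; which version was used is not given in the sources. Of 45101 probe sets, 34945 carried 1 gene symbol, 932 several and 9160 none, and 64 were array controls. Values were kept at their scaling and turned into log2(signal + 52.1). Genes took their brightest probe set on average and were tested at a mean of 7.718 or more with limma 3.58.1 in R 4.3.3 (lmFit, eBayes with a variance trend, Benjamini-Hochberg at 0.05), with a stage block for genotype and a genotype term for stages. The scripts were tested on simulated data. Detection calls were not used here, so Y-linked probe sets stood for background, and the number of arrays limits the precision. With 2 residual degrees of freedom, 5.53 prior ones carry much of each test. Each genotype and stage is 1 mouse, so the spread among mice of the same kind could not be measured. The p-values rest on how the genotype difference varied between the pairs, which differ in stage and mutation, and on the spread of other genes.

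Stage pairs the arrays per the labels, and deviations from the genotype means correlated at 0.859 (virgin pair), 0.587 (pregnant pair) and 0.827 (lactating pair). The keratins and gene lists were chosen with earlier results of these data known. Genes named were all luminal and basal keratins, every keratin called, the 3 with the highest mean signal in each other class, pairs' keratins past 2-fold with a signal above the Y-linked ones, and at most 4 per other list by smallest p. Hoxc13, Flg, Krt1, Krt2, Krt77, Krt76, Krt16, Krt24, Krt222, Krt20, Krt25, Krt36, Krt88, Evpl, Dsc2, Cnn1, Cnfn, Aloxe3 and Calml3 were added after their values were seen. Alternatives were other scalings, pseudocounts, filters and probe set choices, no variance trend, no block or genotype term, and each array or pair left out. Probe sets prone to cross-matching set aside, and pregnant against virgin without the lactating arrays, were chosen after seeing the data.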

Additional observations from a re-analysis of the deposited data

Results flagged for a closer look

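Krt7 moved in opposite directions in different pairs of mutant and control. Its log2 ratio was 1.72 in the lactating pair and -1.12 in the pregnant pair, and the difference between the pairs was not tested, since each holds 1 array per genotype.

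Of the keratin probe sets not used in the comparisons, some rose above the highest Y-linked signal of the same array. A Krt6a probe set read 650.2 in the lactating control, against 484 for the highest Y-linked probe set there, and 336.1 in the lactating mutant. A probe set shared by Krt17 and Krt14 read 404 in the lactating mutant, against 353 for the highest Y-linked probe set there. In the lactating control the shared probe set read 407.6, so it was nearly level in that pair. The probe sets used for Krt17 and Krt14 had lactating ratios of 1.85 and 0.79.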

How the results depend on the processing

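For mutants against controls 0 keratins were called under every alternative, including 0 with no replicate block in place of the paired fit. Over all genes that comparison gave 2 calls without the lactating pair. With arrays left out, Krt7 ranged from -0.65 to 0.77, Krt8 from -0.20 to 0.73, Krt17 from -0.15 to 0.85, Krt18 from -0.22 to 0.10 and Krt14 from -0.35 to 0.56. Krt7 (-0.65), Krt8 (-0.20) and Krt17 (-0.15) changed sign without the lactating pair, Krt18 (0.10) without the pregnant pair, and Krt14 without the lactating (-0.35) or virgin pair (-0.12), under median centring (-0.008) and with cross-matching probe sets set aside (-0.14). Between pregnant and virgin glands the count of keratins called was 0 under median centring, with probe sets averaged and with cross-matching ones set aside, 2 with no filter, and 2 without the lactating arrays (Krt42 higher and Krt7 lower). It ranged from 0 to 2 with arrays left out. Between lactating and virgin glands it was 15 with no filter and 2 with the filter at the 75th percentile, and 4 to 9 with arrays left out, the 9 without the lactating control, all higher, and 8 without the lactating mutant, of which Krt32, Krt42, Krt71 and Krt81 were higher and Krt7, Krt15, Krt17 and Krt23 lower. Between lactating and pregnant glands it was 7 under quantile normalization, 12 with no filter and 2 with the 75th percentile filter, and 0 to 5 with arrays left out. Keratins at least 2-fold apart in the virgin pair were 1 under quantile normalization, 1 with the lower pseudocount of 14.9 and 2 with no filter. In the pregnant pair they were 1 under quantile normalization, 0 with the pseudocount at 168.7, 4 with no filter and 1 with probe sets averaged, and in the lactating pair 4 with the 75th percentile filter, which left 7 keratins. In 28 cases a single keratin's stage call was lost with its direction kept. The cause was not tested beyond what the settings themselves do; the filters change how many genes are tested and arrays left out reduce the samples. Over all genes, 1687 were called between pregnant and virgin glands, 1121 under quantile normalization, 2769 without the lactating arrays, and from 312 to 2775 with 1 array left out. Between lactating and virgin glands the 6089 calls became 3680 with the 75th percentile filter and 3539 without the virgin control, and between lactating and pregnant glands the 3771 became 2202 with that filter, 1280 without the pregnant mutant and 1545 without the pregnant control. Signals near the Y-linked level limit the dim skin keratins.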
